A study of Mus musculus with 32 samples.

Results

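T-cell co-stimulation genes were followed in cultured mouse lung endothelial cells (ECs): Icosl, Tnfsf4 (OX40L), Cd40, Cd80, Cd86, Tnfsf9 (4-1BBL) and Cd70. They are matched by gene symbol, and 7 of the 54429 symbols in the merged counts matrix matched. The 7 genes were chosen with earlier results of these data known, and the study itself picked out Icosl, Tnfsf4 and Cd40 from the comparison of the siRNAs under both cytokines in these libraries. Their values in that comparison are therefore given as a description without a test. The other 3 cytokine states rest on separate libraries, but same-numbered libraries of different groups correlated in their deviations from group means (r = 0.297 to 0.617). Tests of these genes in those states are therefore not fully independent of the choice either. Cytokine contrasts of these 3 genes that involve TNF + IFN reuse libraries of that comparison. Their p-values are therefore not independent of the study's choice.

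A T cell that meets its antigen also reads co-stimulatory signals from the presenting cell. ICOSL and the B7 ligands CD80 and CD86 engage ICOS and CD28, which belong to the immunoglobulin superfamily, whereas OX40L, 4-1BBL and CD70 are TNF-family ligands for OX40, 4-1BB and CD27. CD40 works in the other direction: it is a TNF-receptor family member on antigen-presenting cells and ECs that receives CD40L from activated T cells and signals through TRAF adaptors to NF-κB. Dnmt1 copies CpG methylation onto the new strand after DNA replication.

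The cells were the Veravec line of mouse lung ECs, transfected with a control siRNA (si-control) or with siRNA against Dnmt1 (si-dnmt), so both arms carried the transfection. Each arm then received no cytokine, TNF (TNFα, 10 ng/mL), IFN (IFNγ, 1000 U/mL) or both for 16 h, which gave 8 groups of 4 libraries and 32 bulk RNA-seq libraries in all. The labels call them biological replicates of the line without saying how cultures or days were divided, so p-values measure the spread between these libraries. In bulk RNA, fewer cells that express a gene and less RNA per cell cannot be told apart.

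Totals were 17362546 to 33500030 counts per library. Dnmt1 read 86.5 to 211 CPM (counts scaled by library total and TMM factor) in the 16 si-control libraries and 5.11 to 17.3 CPM in the 16 si-dnmt libraries, and it fell by 3.76 ± 0.37 to 4.08 ± 0.38 (SE) on the log2 scale over the 4 cytokine states. The 10 endothelial markers, which include Cdh5 and Pecam1, were all tested and summed to 3669 to 9672 CPM per library. Their sum was lower with TNF, at 4146 to 5829 CPM in si-control + TNF against 6406 to 9672 CPM in si-control. In si-dnmt + TNF it was 3813 to 5277 CPM, against 6101 to 8908 CPM in si-dnmt. Cldn5, of that list, had 2 to 814 counts per library. The part of the lower endothelial sum in the TNF results was not tested. Of 12 leukocyte markers 3 were tested, and the list summed to 14.5 to 76.0 CPM per library. Ptprc had at most 3 counts per library and Cd3e 0, while Cd53 had 170 to 1856 and Coro1a 44 to 293. Coro1a was higher in si-dnmt in all 4 cytokine states, by 0.69 ± 0.16 to 1.26 ± 0.16 log2, and the part of these markers in the siRNA results was not tested. The summed fibroblast and mural markers read 1.92 to 3.74 CPM in si-control and 15.6 to 56.6 CPM in si-control + TNF, mostly from Dcn, while Rgs5 stayed at 1 count or fewer and Lum at 3 or fewer; the part of that list in the TNF results was not tested.

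Promoter sequence was at hand for Icosl and Cd80, 2 of the 7 genes, from RefSeq on GRCm38.p6. Their 250 bases before the annotated start are shown because both encode B7-family ligands while their content of CpG, the site on which Dnmt1 acts, differed. The capitals mark CpG, and both are read 5′ to 3′ on the plus strand, at chr10:78069118-78069367 for Icosl and chr16:38458683-38458932 for Cd80.
Icosl: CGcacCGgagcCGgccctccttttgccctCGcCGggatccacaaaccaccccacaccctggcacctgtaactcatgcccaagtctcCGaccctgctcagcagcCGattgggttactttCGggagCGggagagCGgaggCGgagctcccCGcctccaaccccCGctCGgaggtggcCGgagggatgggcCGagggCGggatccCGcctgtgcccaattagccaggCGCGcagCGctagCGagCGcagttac
Cd80: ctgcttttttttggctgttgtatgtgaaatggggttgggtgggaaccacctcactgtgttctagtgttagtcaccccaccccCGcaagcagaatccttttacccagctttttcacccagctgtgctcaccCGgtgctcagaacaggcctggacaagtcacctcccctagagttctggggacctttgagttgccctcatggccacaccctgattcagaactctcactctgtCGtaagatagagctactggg
The Icosl window held 23 CpG at 68.8% GC, with an observed-to-expected CpG ratio of 0.784, and 13.3% of 32851 RefSeq promoter windows held at least as many. The Cd80 window held 3 CpG at 52.8% GC with a ratio of 0.174, and 37.8% of the windows held that number or fewer. The median window held 6 CpG. A core NF-κB motif, GGG and CC with 5 bases of any kind between them, was searched on both strands and matched at 2 places in each window. It is held by 45.8% of all windows. The GAS motif TTCNNNGAA, held by 7.02% of windows, and the ISRE core, a pair of GAAA with 2 bases between them, held by 2.98%, matched in neither window. Methylation was not measured in these libraries.

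**Figure D1:**
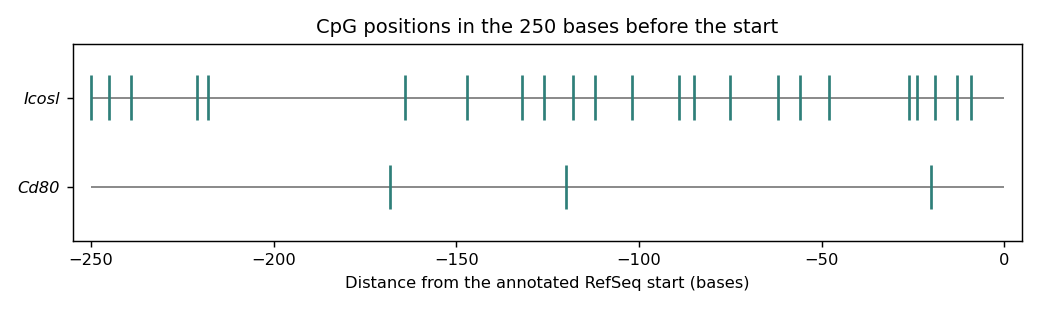
CpG positions (vertical ticks) in the 250 bases before the annotated RefSeq start of Icosl and Cd80, with distance from the start in bases on the horizontal axis. Icosl holds 23 CpG over the window and Cd80 holds 3.

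Of the 7 genes, 5 passed the filter on low counts and were tested. Icosl passed through its groups with TNF, where it was high. Cd86, the B7 ligand that pairs with Cd80 on dendritic cells and B cells, had 0 counts in all 32 libraries. For a count of 0, up to 3 counts per library are allowed, which is a mean of 0.142 CPM in si-control, for counting error only. Cd70, the ligand of CD27, had 21 counts over 8 libraries.

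With Dnmt1 silenced, Tnfsf4 rose in the 3 states tested and Cd40 rose with TNF and with IFN. The resting calls of Cd40 and Icosl were lost in several of the alternative fits given below. Icosl rose from a level near 0 to one that depended on TNF. At an adjusted p under 0.05 by edgeR's quasi-likelihood test, 3 of the 7 genes were called, all higher, without cytokine, where 18.5% of all 15254 genes tested were called in either direction and 9.58% higher. The count was 4 of 7 with TNF (20% of all genes, 10.4% higher) and 4 of 7 with IFN (20.3%, 10.8% higher). Under TNF + IFN, where 17.7% of genes were called and 8.97% higher, neither Cd80 nor Tnfsf9 was called and Cd86 and Cd70 were not tested. The 3 called without cytokine were Icosl, Tnfsf4 and Cd40, the genes the study picked, and each was called with TNF and with IFN as well. These counts and the medians are therefore a description. The median log2 fold change of the 5 genes tested was 0.94, 1.67 and 2.27 without cytokine, with TNF and with IFN, each time the Cd40 value. That of all genes lay between -0.01 and 0.00. Tnfsf9 and Cd80, which the study did not pick, differed by 0.59 and 0.29 at rest, 0.80 and 0.75 with TNF, and 0.73 and 1.66 with IFN.

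**Figure D2:**
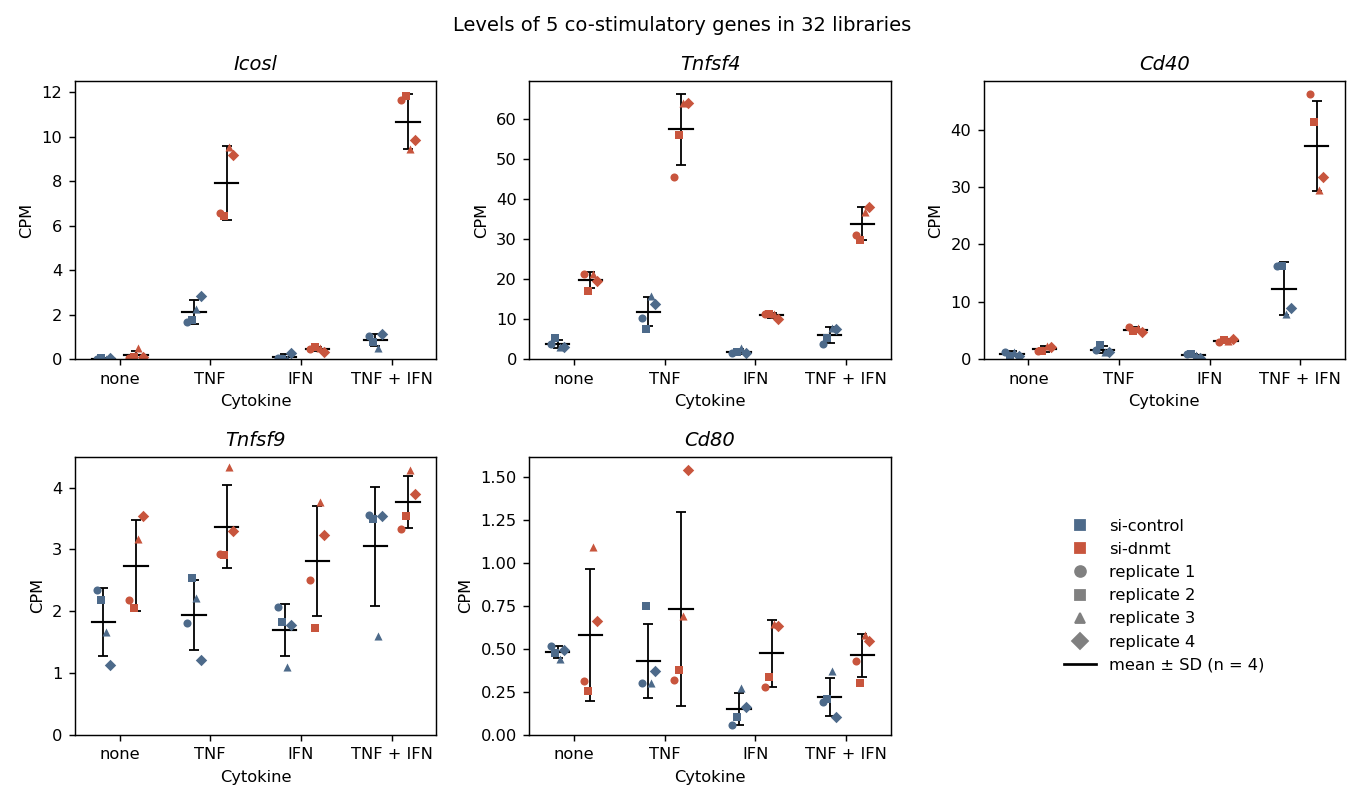
CPM (vertical axes) of Icosl, Tnfsf4, Cd40, Tnfsf9 and Cd80 in the 32 libraries by cytokine (horizontal axes) and siRNA (colour), with 1 symbol per library, the shape giving the replicate number, and bars for the mean ± SD of 4 libraries. Icosl and Tnfsf4 are highest where TNF meets si-dnmt, and Cd40 stands out under TNF + IFN. Group means run from 1.69 to 3.76 CPM for Tnfsf9 and from 0.149 to 0.733 CPM for Cd80.

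**Figure D3:**
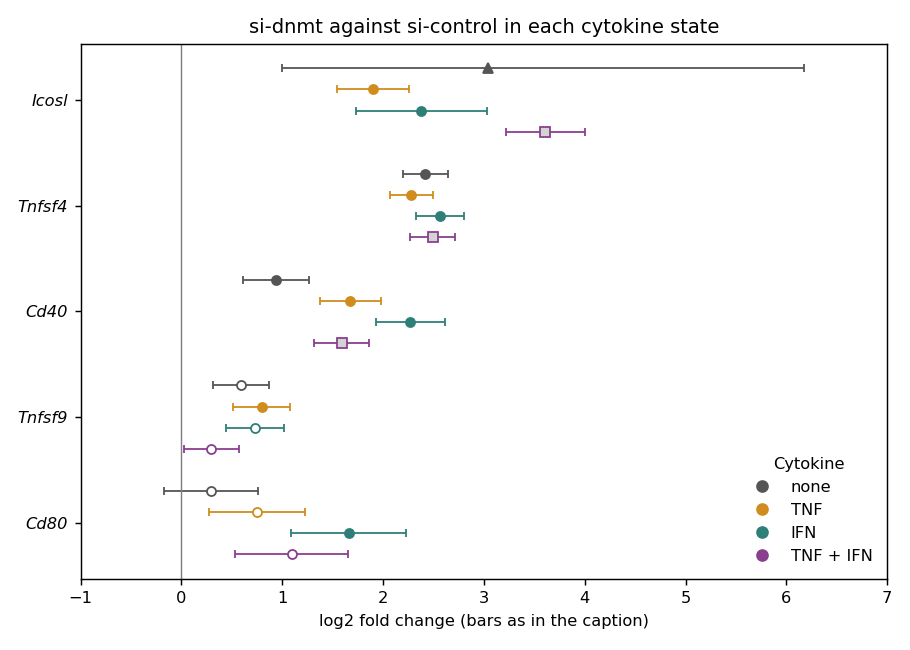
The log2 fold change of si-dnmt against si-control (horizontal axis) for 5 genes in 4 cytokine states (colours). Circles and squares carry ± SE bars; the triangle of Icosl without cytokine is the ratio of summed counts with its 95% counting interval. Filled circles and the filled triangle passed an adjusted p of 0.05, open circles did not, and grey squares mark the 3 genes the study chose under TNF + IFN, shown without a test. All Tnfsf4 values lie between 2.28 and 2.56.

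Icosl (ENSMUSG00000000732) encodes the ligand of ICOS, a receptor of activated, follicular helper and memory T cells. It read 0, 0.0530, 0 and 0.0448 CPM in replicates 1 to 4 of si-control, which is 2 counts in all. TNF-treated si-control libraries had 1.68, 1.73, 2.25 and 2.83 CPM. IFN gave 0.0560, 0, 0 and 0.270 CPM, and the pair gave 1.06, 0.781, 0.493 and 1.11 CPM. In si-control, TNF therefore separated every library from the resting ones, and the libraries given both cytokines all lay below those given TNF alone.
In si-dnmt, Icosl was 0.0445, 0.0855, 0.478 and 0.104 CPM without cytokine and 0.445, 0.546, 0.506 and 0.317 CPM with IFN. It was 6.54, 6.43, 9.55 and 9.15 CPM with TNF and 11.6, 11.8, 9.43 and 9.83 CPM with TNF + IFN. All 8 si-dnmt libraries with TNF exceeded the other libraries of either siRNA, and those with and without added IFN overlapped.

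Silencing Dnmt1 raised Icosl by 1.90 ± 0.36 log2 with TNF (adjusted p = 0.000341) and by 2.38 ± 0.65 with IFN (adjusted p = 0.00932), and the siRNA groups did not overlap in either state. Without cytokine the summed counts were 20 against 2, a ratio of 8.20 with a 95% counting interval of 1.99 to 72.4 (adjusted p = 0.0298), and the groups overlapped. That call was lost without si-dnmt replicate 3 (adjusted p = 0.308), which holds 14 of the 20 counts, without si-control replicate 1 (0.0885) or replicate 3 (0.0867), and in replicates 1 and 2 alone (log2 1.21, adjusted p = 0.562). The IFN difference was 4.24 (adjusted p = 0.000784) without si-control + IFN replicate 4, which holds 5 of that group's 6 counts, and replicates 3 and 4 by themselves gave 1.50 log2 without a call (adjusted p = 0.162). Under TNF + IFN, where the study chose the gene, the difference was 3.61 ± 0.40 log2 and the groups did not overlap.

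TNF was the cytokine with which Icosl rose. TNF against none gave a ratio of 90.2 (95% counting interval 24.6 to 751) in si-control, from 189 against 2 counts, and 5.35 ± 0.46 log2 in si-dnmt, or 6.53 without si-dnmt replicate 3. IFN against none was not called in si-control (ratio 3.46, interval 0.618 to 35.0, adjusted p = 0.402) or in si-dnmt (1.22 ± 0.52 log2, adjusted p = 0.165). Without si-dnmt replicate 3 the latter was 2.40 with an adjusted p of 0.00573. TNF exceeded IFN by 4.61 ± 0.56 log2 in si-control, or 6.48 without si-control + IFN replicate 4, and by 4.13 ± 0.42 in si-dnmt. Since Icosl passed the low-count filter through its TNF groups, the p-values of these TNF contrasts are taken from the edgeR fit with no filter, where TNF against none had an adjusted p of 1.26e-09 in si-control and 1.11e-11 in si-dnmt, and TNF against IFN 2.34e-08 and 5.17e-10. These contrasts share their resting or IFN libraries.

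The effect of adding IFN to TNF was examined after the values had been seen. In si-control Icosl fell by 1.28 ± 0.39 log2 when IFN joined TNF (adjusted p = 0.0188), and in si-dnmt it differed by 0.43 ± 0.34 (adjusted p = 0.440). Both effects are measured on TNF + IFN libraries of the comparison from which the study chose Icosl, so their p-values are not independent of that choice. The difference between these effects, 1.71 ± 0.52 log2, contains the siRNA difference on which the study chose Icosl and is given without a test. The fall in si-control lost its call without si-control + TNF replicate 4 (adjusted p = 0.0601), without si-control + TNF + IFN replicate 2 (0.0522) and without its replicate 3 (0.0636).

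**Figure D4:**
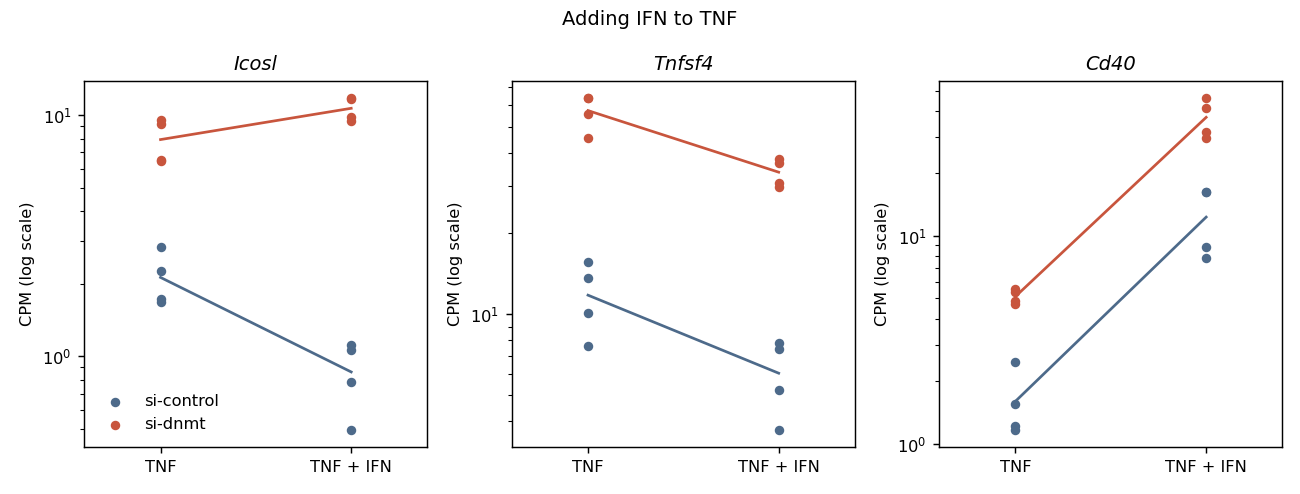
CPM on a log axis of Icosl, Tnfsf4 and Cd40 in libraries given TNF alone and TNF + IFN. Points are single libraries and lines join the means of 4 libraries, in blue for si-control and red for si-dnmt. Cd40 climbs and Tnfsf4 descends with IFN under both siRNAs, while the Icosl lines run downward in si-control (2.12 to 0.861 CPM) and upward in si-dnmt (7.92 to 10.7 CPM).

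Tnfsf4 (ENSMUSG00000026700) encodes OX40L, which sustains activated and memory CD4+ T cells through OX40. Its si-control levels were 3.66, 5.14, 3.03 and 2.96 CPM at rest, 10.1, 7.60, 15.7 and 13.7 with TNF, 1.63, 1.66, 2.67 and 1.40 with IFN, and 3.70, 5.21, 7.83 and 7.41 with both. Its si-dnmt levels were 21.2, 17.1, 21.2 and 19.4 CPM at rest, 45.4, 55.9, 64.1 and 64.1 with TNF, 11.2, 11.2, 11.2 and 10.1 with IFN, and 30.9, 29.7, 36.7 and 38.0 with both. The siRNA groups did not overlap in any cytokine state, and resting si-dnmt libraries exceeded even the si-control libraries given TNF.
Silencing Dnmt1 raised Tnfsf4 by 2.42 ± 0.22 log2 at rest, 2.28 ± 0.21 with TNF and 2.56 ± 0.24 with IFN (adjusted p = 1.65e-08, 2.18e-08 and 2.15e-08). The described difference under TNF + IFN was 2.49 ± 0.22 log2. Interactions of the siRNA with the cytokines were small: -0.14 ± 0.30 for TNF, 0.14 ± 0.32 for IFN and 0.07 ± 0.31 for TNF + IFN, with an adjusted p of 1 for TNF and for IFN and no test for TNF + IFN, which contains the study's choice. Each was smaller than its SE. In replicates 3 and 4 alone the IFN and TNF + IFN interactions were -0.38 and -0.46 log2, against 0.14 and 0.07 in all libraries.

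TNF and IFN moved Tnfsf4 in opposite directions under both siRNAs. TNF raised it by 1.68 ± 0.22 log2 in si-control and 1.54 ± 0.21 in si-dnmt (adjusted p = 1.54e-06 and 3.53e-06). IFN lowered it, with log2 fold changes of -0.998 ± 0.25 and -0.86 ± 0.21 (adjusted p = 0.00535 and 0.00635). With both cytokines it stood above rest by 0.71 ± 0.23 in si-control and 0.78 ± 0.21 in si-dnmt (adjusted p = 0.0123 and 0.00321), and it was lower than with TNF alone, at -0.97 ± 0.22 and -0.76 ± 0.20 log2 (adjusted p = 0.00145 and 0.00855). The TNF-by-IFN interaction was 0.03 ± 0.31 in si-control and 0.09 ± 0.29 in si-dnmt, neither called. These contrasts with TNF + IFN reuse libraries on which the study chose Tnfsf4. The si-control call with both cytokines was lost without si-control replicate 4 (adjusted p = 0.0526) and without si-control + TNF + IFN replicate 3 (0.0701) or replicate 4 (0.0614). It was 0.040 log2 in replicates 1 and 2 alone, and the si-control IFN effect was -0.56 (adjusted p = 0.0849) in replicates 3 and 4 alone.

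Cd40 (ENSMUSG00000017652), the receptor of CD40L, followed the cytokine pair. It read 1.22, 0.583, 1.32 and 0.583 CPM in si-control, 1.55, 2.48, 1.21 and 1.16 with TNF, 0.841, 0.884, 0.709 and 0.216 with IFN, and 16.3, 16.3, 7.83 and 8.84 with both. In si-dnmt it read 1.34, 1.33, 2.32 and 2.12 CPM, 5.54, 4.83, 5.40 and 4.68 with TNF, 2.95, 3.28, 3.13 and 3.49 with IFN, and 46.2, 41.3, 29.4 and 31.7 with both. The 8 libraries given TNF + IFN were above the other 24, and replicates 1 and 2 were above replicates 3 and 4 under both siRNAs there.
Dnmt1 silencing raised Cd40 by 1.67 ± 0.30 log2 with TNF (adjusted p = 0.000189) and 2.27 ± 0.34 with IFN (adjusted p = 2.44e-05). The resting difference of 0.94 ± 0.33 was called narrowly (adjusted p = 0.0452), and the resting groups came within 1.32 and 1.33 CPM of each other. The resting call was lost without si-control replicate 2 (adjusted p = 0.130) or 4 (0.140) and without si-dnmt replicate 3 (0.156) or 4 (0.119). It was also lost in a fit of only those 2 groups (0.113), with no low-count filter (0.0605) and in replicates 1 and 2 alone (0.54 log2, adjusted p = 0.254). Under TNF + IFN the described difference was 1.59 ± 0.27 log2.

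TNF + IFN raised Cd40 by 3.72 ± 0.32 log2 over rest in si-control and by 4.37 ± 0.31 in si-dnmt (adjusted p = 1.64e-10 and 3.92e-12). Single cytokines did far less: TNF gave 0.77 ± 0.33 in si-control (adjusted p = 0.0802) and 1.51 ± 0.29 in si-dnmt (adjusted p = 0.000409), and IFN gave -0.49 ± 0.38 (adjusted p = 0.466) and 0.84 ± 0.30 (adjusted p = 0.0749). With the replicate number as a block, the IFN effect in si-dnmt was called (0.83, adjusted p = 0.0249), as was TNF over IFN in si-dnmt (0.64, adjusted p = 0.0444, against 0.67 and 0.110 without the block). The pair exceeded the sum of the single log2 effects by 3.43 ± 0.48 in si-control (adjusted p = 6.71e-05) and 2.02 ± 0.40 in si-dnmt (adjusted p = 0.0143). That interaction was called for 1.06% and 0.354% of all genes, and Cd40 was the single gene of the 7 called. Without si-dnmt replicate 3 the si-dnmt interaction had an adjusted p of 0.0568. The TNF + IFN contrasts of Cd40 and this interaction reuse libraries on which the study chose the gene. The excess differed between the siRNAs by -1.42 ± 0.62 log2, a contrast added after the values were seen and, since it contains the study's choice, given without a test.

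IFN added to TNF raised Cd40 by 2.94 ± 0.30 log2 in si-control and 2.86 ± 0.29 in si-dnmt (adjusted p = 1.84e-08 and 1.47e-08). IFN added to TNF therefore moved Cd40 and Tnfsf4 in opposite directions under both siRNAs. In that contrast 21% of all genes were called in si-control and 17.5% in si-dnmt, and of the 7 genes 1 was higher and 2 lower in si-control and 1 higher and 1 lower in si-dnmt.

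**Figure D5:**
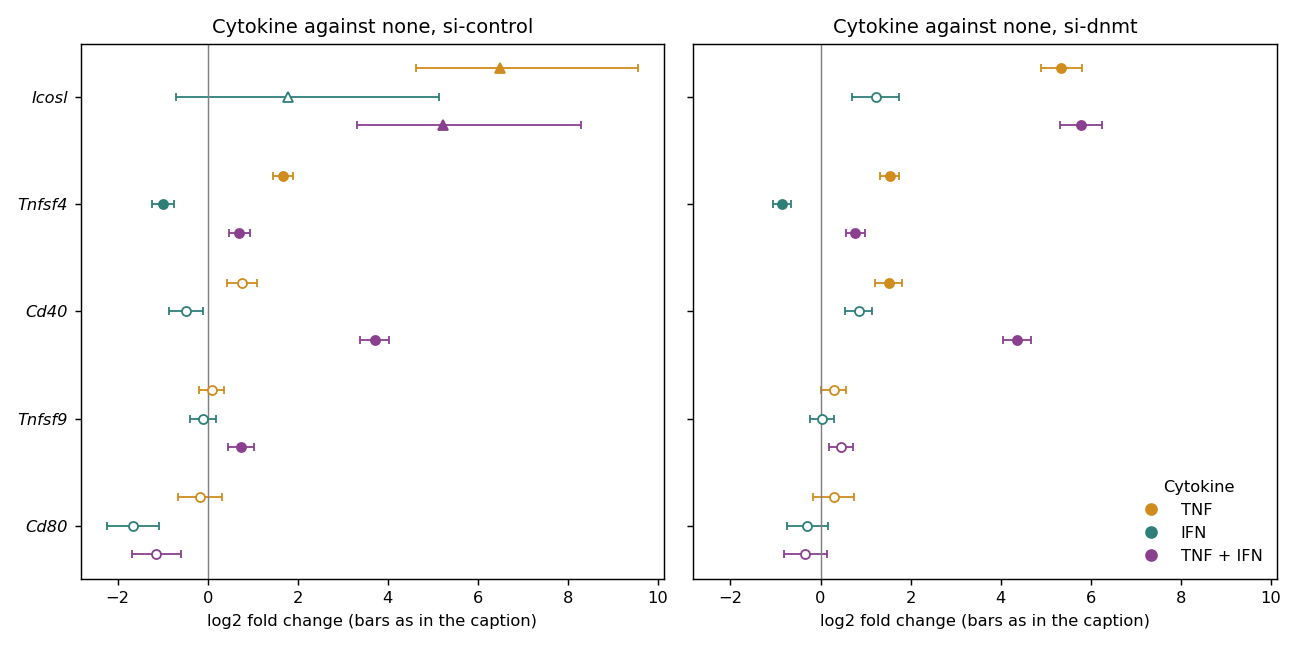
The log2 fold change of TNF, IFN and TNF + IFN (colours) against no cytokine for 5 genes in si-control (left) and si-dnmt (right). Circles carry ± SE bars, triangles are ratios of summed counts with 95% counting intervals for Icosl in si-control, and filled symbols passed an adjusted p of 0.05. TNF points lie to the right of IFN points for all 5 genes, most widely for Icosl and Tnfsf4. The TNF + IFN point of Cd40 lies far from its single-cytokine points.

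Against no cytokine, 2 of the 7 genes were called higher with TNF in si-control, where 30.8% of all genes were called in either direction and 16.1% higher. In si-dnmt 3 were called higher (21% of all genes, 11.5% higher). With IFN, 1 of 7 was called and was lower in each arm, and it was Tnfsf4 in both. The shares there were 14.5% of all genes in si-control (5.92% lower) and 9.01% in si-dnmt (2.35% lower). With TNF + IFN, 4 of 7 were higher in si-control and 3 in si-dnmt, where 45.2% and 40.2% of all genes were called and 23.5% and 21.3% were higher. The counts in si-control with TNF and with IFN, and in si-dnmt with TNF + IFN, are near the shares in either direction. TNF exceeded IFN in 3 of 7 genes in si-control and 2 in si-dnmt, with 28.4% and 17% of all genes called (13.3% and 7.33% higher). Adding TNF to IFN raised 4 of 7 and 3 of 7 genes, with 29.1% and 23.6% of all genes called (15.6% and 12.4% higher). The comparisons against none share their resting libraries, and all other genes of the 7 were not called or not tested. Counts with TNF include Icosl, which passed the low-count filter through those groups. Interactions of the siRNA with TNF, IFN and TNF + IFN were called for 0.0328%, 0.0459% and 0.531% of all genes. Leaving out TNF + IFN for the 3 genes the study chose there, 12 interactions of the 5 genes were tested, and edgeR called 0. DESeq2 gave an adjusted p for 6 of them and called 0. At an unadjusted p under 0.05, either tool found 1, that of Cd40 with IFN (1.33 ± 0.48 log2, unadjusted p = 0.00946 by edgeR).

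Tnfsf9 (ENSMUSG00000035678) encodes 4-1BBL, which supports CD8+ T cells through 4-1BB. In si-control it read 2.35, 2.17, 1.67 and 1.12 CPM at rest, 1.80, 2.53, 2.21 and 1.21 with TNF, 2.07, 1.82, 1.09 and 1.78 with IFN, and 3.56, 3.49, 1.60 and 3.55 with both. In si-dnmt it read 2.18, 2.05, 3.17 and 3.54 CPM, 2.93, 2.91, 4.34 and 3.29 with TNF, 2.50, 1.72, 3.77 and 3.23 with IFN, and 3.32, 3.54, 4.28 and 3.90 with both. The siRNA groups were separate with TNF and overlapped in the other 3 states.
The siRNA difference was called with TNF (0.80 ± 0.28 log2, adjusted p = 0.0444) and was 0.59 ± 0.28 at rest, 0.73 ± 0.29 with IFN and 0.30 ± 0.28 with both (adjusted p = 0.153, 0.0703 and 0.519). The TNF call was lost without any of 6 of its 8 libraries, which are replicates 1 (adjusted p = 0.0977), 3 (0.0570) and 4 (0.144) of si-control + TNF and replicates 2 (0.0503), 3 (0.157) and 4 (0.0769) of si-dnmt + TNF. It was lost as well with no low-count filter (0.0930) and in a fit of the 2 groups alone (0.0689). In replicates 1 and 2 alone the resting difference was -0.09 log2, and in replicates 3 and 4 alone it was 1.26 (adjusted p = 0.00381), so the sets gave different signs.
Against rest, Tnfsf9 was called with TNF + IFN in si-control (0.75 ± 0.28, adjusted p = 0.0333), a call lost without si-control replicates 3 (adjusted p = 0.0744) or 4 (0.136) and without si-control + TNF + IFN replicates 1 (0.0903), 2 (0.0871) or 4 (0.0943). The exons of Tnfsf9 share 192 bases with the opposite-strand lincRNA Gm11110 (445 counts in all libraries) in GENCODE M21, and the strand setting of the counting is not stated, so reads of the pair cannot be told apart.

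Cd80 (ENSMUSG00000075122), the B7 ligand for CD28 and CTLA4, was the least abundant gene tested, with 312 counts over the 32 libraries. In si-control it read 0.516, 0.477, 0.439 and 0.493 CPM at rest, 0.301, 0.750, 0.303 and 0.371 with TNF, 0.0560, 0.104, 0.273 and 0.162 with IFN, and 0.192, 0.208, 0.370 and 0.106 with both. In si-dnmt it read 0.312, 0.257, 1.09 and 0.660 CPM, 0.320, 0.375, 0.692 and 1.54 with TNF, 0.278, 0.336, 0.644 and 0.635 with IFN, and 0.431, 0.300, 0.578 and 0.543 with both. The siRNA groups were separate with IFN, by 0.273 against 0.278 CPM, and overlapped in the other states.
The siRNA difference was called with IFN (1.66 ± 0.57 log2, adjusted p = 0.0387) and was 0.29 ± 0.47 at rest, 0.75 ± 0.48 with TNF and 1.09 ± 0.56 with both (adjusted p = 0.728, 0.295 and 0.190). The IFN call was lost without si-control + IFN replicate 1 (adjusted p = 0.116), 2 (0.0968) or 4 (0.0700), without si-dnmt + IFN replicate 3 (0.101) or 4 (0.113), and with no low-count filter (0.0825). In si-control, Cd80 with IFN differed from rest by -1.66 ± 0.58 log2 (adjusted p = 0.0531) and with TNF from IFN by 1.49 ± 0.58 (adjusted p = 0.0549). Both were called with the replicate block (-1.70 and 1.56 log2, adjusted p = 0.0192 and 0.0229), without si-control + IFN replicate 3 (adjusted p = 0.0326 and 0.0289) and in replicates 1 and 2 alone (0.0217 and 0.0108). TNF against IFN was also called without si-control + TNF replicate 1 (0.0486).

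Cd70 counts were concentrated in si-dnmt + TNF, with 6, 4, 1 and 3 counts in replicates 1 to 4 against 0 in every si-control + TNF library. Against the floor of 3 counts per library this was at least 1.24-fold higher, and an exact two-sided permutation test over the 70 assignments of the 8 libraries gave p = 0.0286, the smallest it allows (adjusted p = 0.114 over 4 tests). Elsewhere the counts were 2 in si-control + TNF + IFN replicate 4, 2 in si-dnmt replicate 4, and 1 and 2 in si-dnmt + TNF + IFN replicates 3 and 4. With no low-count filter, edgeR called the difference under TNF (adjusted p = 0.0491).

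The order of the 8 groups differed by gene. For Icosl, si-dnmt + TNF + IFN and si-dnmt + TNF led and overlapped, si-control + TNF followed apart from both neighbours, and the 5 lower groups each overlapped the next. For Tnfsf4, si-dnmt + TNF, si-dnmt + TNF + IFN and si-dnmt came first and were separate, and si-control + IFN was last. For Cd40 the leading 5 groups were si-dnmt + TNF + IFN, si-control + TNF + IFN, si-dnmt + TNF, si-dnmt + IFN and si-dnmt; the first 4 were each separate from the next, and the lower groups overlapped their neighbours. All neighbouring Cd80 groups overlapped.

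Compared per length, with CPM divided by the GENCODE M21 exon length (RPKM, since the annotation of the counting is not stated), Tnfsf4 was the most abundant of the genes in resting si-control at 2.01 ± 0.55 RPKM (SD, n = 4), followed by Tnfsf9 at 1.42 ± 0.43. Cd40 read 0.272 ± 0.117 RPKM, Cd80 0.130 ± 0.009 and Icosl 0.00530 ± 0.00616. In si-dnmt + TNF + IFN, Tnfsf4 stood at 18.4 ± 2.2 RPKM, Cd40 at 10.9 ± 2.3, Tnfsf9 at 2.92 ± 0.33, Icosl at 2.31 ± 0.26 and Cd80 at 0.125 ± 0.034. Cd40 thus passed Tnfsf9 in level between these groups, and Icosl passed Cd80.

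The genes whose log2 CPM tracked each gene most closely over the 32 libraries were named by Pearson's r, as a description over libraries that share treatments and scaling. For Icosl they were Nlrp3 (r = 0.960), an inflammasome sensor, Tank (0.941), a TRAF-binding protein, and Ankrd33b (0.938). For Tnfsf4 they were Nefm (0.935), a neurofilament subunit, Zfp275 (0.935) and Traf3 (0.921), a TRAF adaptor. For Cd40 they were Top3a (0.933), a topoisomerase, Il27 (0.933), a cytokine subunit, and Trim30c (0.932). The values were lower for Tnfsf9, led by Zswim4 (0.810), Zwint (0.796) and Oser1 (0.796), and for Cd80, led by Trim24 (0.802), Phldb1 (0.801) and Ptchd1 (0.796). Nlrp3 shared with Icosl a low resting level in si-control (0.0474 ± 0.0369 CPM) and a higher one with TNF (2.31 ± 0.12 in si-control and 5.56 ± 1.40 in si-dnmt). Il27 reached 3.13 ± 1.06 CPM with the cytokine pair in si-control and 21.1 ± 6.6 in si-dnmt, against 0.474 ± 0.121 CPM or less in the groups without TNF.

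Among the receptors and partners known from T cells, Cd40lg had 0 counts in every library, Ctla4 at most 2, Icos at most 6 and Tnfrsf4 (OX40) at most 11. Of the 7 receptor and partner genes, 3 were tested. Tnfrsf9 (4-1BB) was higher by 3.32 ± 0.64 log2 with TNF in si-control, from 0.500 ± 0.536 to 4.86 ± 1.32 CPM. Its counts ran from 0 to 248 per library, and it may have passed the low-count filter through its groups with TNF. The Tnfrsf9 difference is therefore given as a description. Cd28 fell with Dnmt1 silencing by 2.67 ± 0.53 log2 at rest (adjusted p = 0.000613), 1.94 ± 0.50 with TNF (0.00628) and 2.56 ± 0.55 with IFN (0.00123), and its difference with both was -1.36 ± 0.54 (0.0803), from a resting level of 1.48 ± 0.35 CPM. Cd27 rose by 1.32 ± 0.42 with TNF between the siRNAs (adjusted p = 0.0270).

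Of 10 other co-stimulatory and adhesion ligands, 7 were tested, and 3 were higher and 1 lower in si-dnmt at rest and with TNF, 0 and 1 with IFN, and 1 and 1 with both, where 18.5%, 20%, 20.3% and 17.7% of all genes were called. Tnfrsf14 (HVEM), a receptor of LIGHT and BTLA, rose by 1.41 ± 0.21 at rest (adjusted p = 2.61e-05) and 0.82 ± 0.19 with TNF (adjusted p = 0.00249). Pvr, a ligand of DNAM-1 and TIGIT, fell by 0.98 ± 0.22 at rest (adjusted p = 0.00169), by 1.08 ± 0.22 with TNF (0.000592) and by 1.00 ± 0.22 with IFN (0.00144), and its fall was 0.99 ± 0.22 with both (0.00158). Tnfsf15 (TL1A), called higher in 3 states, had 0 counts in resting si-control and averaged 0.796 ± 0.371 CPM in si-dnmt + TNF. With 0 counts at rest in si-control, it passed the low-count filter through other groups, where it was higher. Its calls, which the counts above include, are therefore a description. In si-control, TNF raised 3 of the 7 and IFN 4 (30.8% and 14.5% of all genes called), led by Tnfrsf14 with IFN (3.38 ± 0.21, adjusted p = 5.21e-13).

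Among 4 tested of 6 co-inhibitory ligands, 3 were higher in si-dnmt at rest, 2 with TNF, 1 with IFN and 1 with both, against 9.58%, 10.4%, 10.8% and 8.97% of all genes, and 0 were lower. Cd274 (PD-L1) was higher by 1.42 ± 0.25 at rest (adjusted p = 0.000187) and 0.69 ± 0.24 with TNF (adjusted p = 0.0398). Cd276 (B7-H3) was higher in all 4 states, by 0.33 ± 0.09 to 0.59 ± 0.09 log2. IFN in si-control raised Cd274 by 5.80 ± 0.29 log2 (adjusted p = 5.64e-15), whereas Tnfsf4 was lower with IFN and the Icosl difference was not called.

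All 19 genes listed for CD40 signalling to NF-κB were tested. TNF raised 14 and lowered 0 in si-control, and TNF + IFN raised 15 and lowered 0, while IFN alone raised 2. The shares of all genes called there were 30.8%, 45.2% and 14.5%. The largest TNF effects were on Tnfaip3 (A20, 2.64 ± 0.18 log2, adjusted p = 1.03e-11), Relb (2.21 ± 0.18, 3.21e-10) and Nfkbie (1.84 ± 0.21, 1.27e-07). In si-dnmt against si-control 5 were higher at rest, 3 higher and 1 lower with TNF, 7 higher with IFN, and 6 higher and 1 lower with both, where 18.5%, 20%, 20.3% and 17.7% of all genes were called. With TNF that share, 4 of 19, is near the background. The leading genes at rest were Tnfaip3 (1.22 ± 0.17, adjusted p = 1.19e-05), Traf3 (0.69 ± 0.12, 9.40e-05) and Relb (0.69 ± 0.18, 0.00601). The list's median siRNA effect was 0.22 log2 at rest and 0.07 with TNF, and that of all genes lay between -0.01 and 0.00.

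The 11 listed genes of IFN-γ signalling were all tested. IFN raised 7 and lowered 1 in si-control, where 14.5% of all genes were called, led by Ciita (11.03 ± 0.88 log2), Socs1 (4.91 ± 0.30, adjusted p = 2.34e-13) and Irf1 (4.40 ± 0.16, 5.83e-18). With a change of this size, Ciita may have passed the low-count filter through its groups with IFN. Its calls, which the counts for this list include, are therefore a description. In si-dnmt against si-control, 4 were higher at rest, among them Socs1 (1.01 ± 0.30 log2), Jak2 (0.64 ± 0.11) and Irf1 (0.51 ± 0.14), and 2 higher and 1 lower with TNF (18.5% and 20% of all genes called). Ciita was among those called with TNF. With IFN, and with TNF + IFN, edgeR called 0 of 11, although 1 and 3 had an unadjusted p below 0.05. By DESeq2, 1 gene passed in each state, which was Socs1 with both.

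The nearest protein-coding neighbours in RefSeq order were examined for each gene. Of the neighbours of Icosl (Dnmt3l and Gatd3a) none was tested, Dnmt3l having 24 counts in all libraries. Prdx6 and Tnfsf18 beside Tnfsf4 and Ncoa5 beside Cd40 were not called in any of the 4 siRNA contrasts, with log2 values of 0.66 to 0.82 for Prdx6 (lowest adjusted p = 0.0775, with IFN), -0.03 to 0.21 for Tnfsf18 and -0.08 to 0.08 for Ncoa5. Cdh22, on the other side of Cd40, had 19 counts. Adprh beside Cd80 was lower in 2 of 4 contrasts and Timmdc1 in 0.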

How the data were processed

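The authors deposited whole gene counts for each of the 32 bulk RNA-seq libraries, with no normalization, and their processing notes name FastQC 0.12.1, cutadapt 4.9, MultiQC 1.27.1, featureCounts and DESeq2. For the aligner, build, annotation and strand mode, an entry was not given in the sources used here. Rows of the 7 genes were equal in the merged and the per-library tables.

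Low genes were removed with filterByExpr (minimum count 10), and the 15254 genes left held 99.9% or more of each library's counts. A single edgeR 4.0.16 model (R 4.3.3) with 8 group means and TMM factors of 0.880 to 1.09 gave two-sided quasi-likelihood F tests, adjusted by Benjamini-Hochberg over those genes and called at an adjusted p under 0.05. SE is the log2 fold change divided by the root of F. A group with at most 3 counts per library is compared as a ratio of summed counts with a 95% counting interval. Intervals and floors cover counting error only. The fit was tested on simulated counts with known changes before use.

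Deviations of same-numbered libraries from their group means correlated at r = 0.297 to 0.617 in all 112 pairs of libraries. In 70 of the 112 pairs the same-numbered library was the one that correlated best. The labels share the numbers between groups without naming a common day, so pairing by number rests on these correlations and was not established. A fit with the replicate number as a block is given where it changes a call. With the block, the share of genes called for the siRNA moved from 18.5%, 20%, 20.3% and 17.7% to 32.4%, 33.4%, 34.5% and 30.8% at rest, with TNF, with IFN and with both.

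Genes are named by a rule: the 7 genes, Dnmt1, the 3 genes with the highest correlation to each tested gene, at most 3 called genes per list and contrast with the largest change, and the nearest coding neighbours. Genes and lists were chosen with earlier results of these data known, and the contrasts that add a second cytokine were chosen after their values were seen. Alternatives were RLE factors, DESeq2 1.42.0, no low-count filter, the replicate block, the 2 groups alone, replicates 1 and 2 or 3 and 4 alone, and each library left out. Some single-gene values are not reported here.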

Additional observations from a re-analysis of the deposited data

Results flagged for a closer look

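A library was called far from the other 3 of its group by its gap to the nearest library as a share of the group's range. Chance gives about 5% of such sets for normally distributed values. That rate does not hold where a single library has counts, as for Cd70, since the share is then fixed at 1.00. Within groups of 4 libraries, 6 of 52 sets of gene and group, with Dnmt1 counted as well, held such a library. They were Cd70 in si-control + TNF + IFN replicate 4 and in si-dnmt replicate 4 (share 1.00 each, with 2 counts against 0), Cd80 in si-control + TNF replicate 2 (share 0.843, 0.750 CPM), Icosl in si-dnmt replicate 3 (0.862, 0.478 CPM), Tnfsf4 in si-dnmt + IFN replicate 4 (0.953, 10.1 CPM) and Tnfsf9 in si-control + TNF + IFN replicate 3 (0.965, 1.60 CPM). The Tnfsf4 value differs by little from its neighbours at 11.2 CPM.

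The effect of IFN on Cd40 differed with and without TNF, by 3.43 log2 in si-control and 2.02 log2 in si-dnmt, both tested as an interaction and called by edgeR's quasi-likelihood test (adjusted p = 6.71e-05 and 0.0143).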

How the results depend on the processing

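All values here are log2 fold changes unless stated. RLE factors changed no call or direction, and the replicate block changed no call beyond the following. With the replicate block, 4 contrasts became called: Cd80 with IFN against none in si-control (-1.70), Cd80 with TNF against IFN in si-control (1.56), Cd40 with IFN against none in si-dnmt (0.83) and Cd40 with TNF against IFN in si-dnmt (0.64). DESeq2 added Cd40 with TNF in si-control (0.79) and with IFN in si-dnmt (0.82). The siRNA difference of Icosl on adding IFN to TNF, given without a test, was 1.73 by DESeq2 and 1.73 in replicates 1 and 2 alone. With no low-count filter, in which more genes are tested, the calls of Cd40 at rest (0.96), Tnfsf9 with TNF (0.79) and Cd80 with IFN (1.67) between the siRNAs and of Tnfsf9 with TNF + IFN in si-control (0.77) were lost, and Cd70 between the siRNAs with TNF was called (a difference of 0.166 CPM). A fit of 2 groups lost Cd40 at rest (0.94) and Tnfsf9 with TNF (0.78).

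Replicates 1 and 2 alone lost the siRNA calls of Icosl at rest (1.21), Cd40 at rest (0.54), Tnfsf9 with TNF (0.43) and Cd80 with IFN (1.85), and the call of Tnfsf4 with TNF + IFN against none in si-control (0.040). They turned the sign of the uncalled siRNA values of Cd80 at rest (-0.79) and with TNF (-0.57), of Tnfsf9 at rest (-0.087) and with both (-0.042), and of the Tnfsf4 siRNA-by-TNF interaction (0.37). They added Cd40 with TNF in si-control (1.13), with IFN in si-dnmt (1.23) and with TNF against IFN in si-dnmt (0.73), Cd80 in si-control with IFN (-2.51) and with TNF against IFN (2.59), and Icosl in si-dnmt with IFN (2.83) and on adding IFN to TNF (0.85). Replicates 3 and 4 alone lost Icosl (1.50) and Cd80 (1.53) between the siRNAs with IFN and Tnfsf4 with IFN in si-control (-0.56). They added Tnfsf9 at rest (1.26) and with IFN (1.2696) and Cd80 with TNF (1.70) between the siRNAs, and Cd40 with TNF against IFN in si-dnmt (0.60). They turned the sign of uncalled Tnfsf4 interactions: siRNA by IFN (-0.38), siRNA by TNF + IFN (-0.46) and TNF by IFN in si-control (-0.39). Each set holds 2 libraries per group. Dnmt1 was higher in si-control and lower in si-dnmt in replicates 3 and 4 than in 1 and 2, in every cytokine state. At rest, replicates 3 and 4 averaged 151 against 6.49 CPM (si-control first), and replicates 1 and 2 averaged 89.6 against 11.3 CPM. These pairs of CPM values were 188 and 8.08 against 156 and 15.5 with TNF. They were 173 and 5.45 against 86.5 and 11.4 with IFN, and 207 and 5.81 against 146 and 15.2 with both. The cause of the differences between the sets, and the part of the Dnmt1 level in them, was not tested.

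With 1 library left out at a time, siRNA values ranged from 1.54 to 3.21 for Icosl at rest, 1.97 to 4.24 for Icosl with IFN, 0.77 to 1.16 for Cd40 at rest, 0.63 to 0.95 and 0.56 to 0.91 for Tnfsf9 with TNF and IFN, and -0.21 to 0.53 and 1.40 to 2.10 for Cd80 at rest and with IFN. Against none they ranged in si-control from -0.30 to 2.06 for Icosl with IFN, 0.49 to 1.00 for Cd40 with TNF, -2.13 to -1.43 for Cd80 with IFN, 0.55 to 0.90 for Tnfsf4 and 0.56 to 0.94 for Tnfsf9 with TNF + IFN, and in si-dnmt from 0.94 to 2.40 for Icosl with IFN. TNF against IFN in si-control ranged from 1.10 to 1.96 for Cd80 and from 4.23 to 6.48 for Icosl, and Icosl on adding IFN to TNF in si-control from -1.43 to -1.11. The TNF-by-IFN interaction ranged from 1.86 to 2.13 for Cd40 in si-dnmt, and from -0.17 to 0.28 and -0.0051 to 0.16 for Tnfsf4 in si-control and si-dnmt, with 1 to 2 of these interactions called. The Tnfsf4 siRNA interactions ranged from -0.33 to 0.030 with TNF, -0.051 to 0.37 with IFN and -0.13 to 0.22 with TNF + IFN. In all, 46 of 67 results were unchanged in each of these fits. A gene contrast counted as unchanged if it kept its direction and side of the threshold. The Cd70 differences had no p-value in these fits and only had to stay within the larger SD of the groups compared. Counts of called tests, also among these results, only had to stay near their value in all libraries. Depth limits Cd80, Cd70, Cd86 and resting Icosl, which had few or 0 counts.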
